A study of Mus musculus with 32 samples.

Results

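The 43 genes described here encode lysosomal hydrolases, other soluble lysosomal proteins, a Golgi enzyme that tags hydrolases, and lysosomal membrane proteins. They were measured by RNA sequencing in BV-2, a mouse microglial cell line immortalised in culture. They were chosen by gene symbol from the deposited table, and all 43 symbols were found among its 45706 genes. By function, 10 serve the breakdown of sphingolipids and gangliosides, 4 that of glycoproteins, 7 that of glycosaminoglycans and 1 that of glycogen. Of the others, 2 tag enzymes with mannose 6-phosphate, 3 handle cholesterol and neutral lipids, 6 act on proteins, nucleic acids or phosphate esters, and 10 are membrane proteins.

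The study asked how 3 microRNAs act on gene expression in resting and activated microglia-like cells. It compared 8 groups of 4 libraries, a 2 by 4 layout of treatment and transfection. The cells were wild type by label and were exposed for 24 h to LPS (lipopolysaccharide of the outer bacterial membrane, sensed by macrophages through TLR4) at 10 ng/ml or to its vehicle (VEH). They were transfected with a scramble mimic or with a mimic (a synthetic double-stranded RNA that supplies the mature strand) of 1 of 3 microRNAs, which were miR-146a-5p, miR-29a-3p and miR-7a-5p. The methods describe replicates as independent experiments in this 1 cell line. Within a treatment the 3 mimics were compared with the same 4 scramble libraries, so these comparisons share their controls. The labels place the LPS treatment before transfection and the methods place transfection first, so the order cannot be stated. The labels also call the line a glioblastoma and give some libraries an age of mice, which does not apply to cultured cells. The abundance of the mature microRNAs was not analysed here.

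Lysosomes are the acidic compartments in which cells degrade material taken up by phagocytosis, endocytosis and autophagy. Their soluble hydrolases are made in the endoplasmic reticulum, receive a mannose 6-phosphate tag in the Golgi and are carried to the compartment by receptors that bind this tag. Membrane proteins such as LAMP1 and LAMP2 line the compartment, while channels and transporters set its ion content and export the products. Many of these genes carry the CLEAR motif, built around the letters CACGTG, which the transcription factors TFEB and TFE3 bind. In microglia this system digests engulfed debris and synapses, and inherited loss of single hydrolases causes storage disorders that often affect the brain.

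The mature sequences of the 3 mimics are shown because matches to bases 2 to 8 (the seed, in capitals) in a 3′ UTR are the usual sign of a possible direct target. They are from RefSeq, build GRCm38.p6, and read 5′ to 3′. No seed is shared among the 3.
miR-7a-5p: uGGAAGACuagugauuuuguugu
miR-29a-3p: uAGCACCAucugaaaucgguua
miR-146a-5p: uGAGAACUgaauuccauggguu

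A 3′ UTR was found in the GENCODE M21 transcripts (GRCm38) for 42 of the 43 members, all but Ifi30. Letters complementary to the miR-7a-5p seed (GTCTTCC) occurred in 7 of these 42 members (16.7%), against 11.8% of 20981 genes with a 3′ UTR. The 7 were Psap, Gusb, Ids, Gnptab, Lipa, Tpp1 and Lamp2. The miR-146a-5p match (AGTTCTC) occurred in 5 members (11.9%, against 11.1% of all), namely Gm2a, Galc, Asah1, Lipa and Lamp2. The miR-29a-3p match (TGGTGCT) occurred in 1 member, Hexa (2.4%, against 13% of all). These shares are descriptions, and a match is not a shown binding site. The Hexa match lies at chr9:59565053-59565075 on the plus strand, the Psap match at chr10:60302217-60302239 on the plus strand and the Tpp1 match at chr7:105746307-105746329 on the minus strand. The matched bases are in capitals below, with 8 neighbouring bases on each side.
Hexa, miR-29a-3p: aaggaggcTGGTGCTggcactgg
Psap, miR-7a-5p: gctttcctGTCTTCCcgtctgcc
Tpp1, miR-7a-5p: aaggttcaGTCTTCCattactga

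RefSeq promoter windows (250 bases before to 50 after a gene start, GRCm38.p6) were matched for 39 members with 43 windows. The letters CACGTG, which read the same on both strands, occurred in 14 of the 43 windows (32.6%), against 7.15% of 32851 windows of all genes. The longer form TCACGTGA, which contains the shorter one, occurred in 7 of 43 windows (16.3%), against 0.97% of all windows. It was found in Cd164, Cln3, Gla, Gnptg, Ifi30 and Mcoln1. Those of Cd164 (chr10:41519402-41519431, plus strand), Gnptg (chr17:25240119-25240148, minus strand) and Ifi30 (chr8:70766841-70766870, minus strand) are shown because these genes differed between mimics, with the motif in capitals. No test of the motif against expression was made.
Cd164: gccgggctgcTCACGTGAccggcgcgcgct
Gnptg: cggctgtcacTCACGTGAccgtgagaccct
Ifi30: tccaaaaactTCACGTGAccagacatgcta

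The deposited counts had lost their decimal marks, and all values below come from counts in which the marks were restored by a statistical model. Restored library totals ran from 1.44 M to 20.8 M counts, where M stands for 1000000. Vehicle libraries were shallower than LPS libraries with scramble (6.14 ± 2.57 M against 12.8 ± 7.44 M; SD, n = 4 each). Small structural RNA genes held 46.4% to 47.1% of the counts in replicates 2 to 4 of the vehicle miR-7a group, against 5.93% in its replicate 1 and 2.79% to 19.1% in the other 28 libraries. Of the 1376 member values, 293 were given lost decimals and 1 was uncertain, that of Gnptg in replicate 2 of the vehicle miR-146a group. Gnptg was therefore left out of comparisons with that group, and 42 members were tested there. Glb1 and Cd63 held fractional counts, more than 0.01 from a whole number, in 31 and 32 of the 32 libraries. Such counts arise where reads are shared between genes, so their values are less certain than those of other members. The strand setting of the counting is not stated, so reads of members that overlap a gene on the opposite strand, such as Arsb, Hexa, Gnptab, Acp2 and Lamp1, cannot be told apart from that gene's reads there. Marker genes of microglia and macrophages were present (Csf1r at 284 to 982 CPM, Ptprc at 242 to 542 CPM, with CPM for counts per M counts of a library). The homeostatic markers P2ry12, Tmem119 and Cx3cr1 were low, at medians of 4.85, 2.64 and 0.59 CPM. Markers of astrocytes, neurons, fibroblasts and lymphocytes did not exceed 2.94 CPM in any library, and the highest oligodendrocyte marker, Mbp, reached 16.2 CPM.

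All 43 members were detected in all 32 libraries. Their levels are given as TMM-scaled CPM, divided by the length of the gene's merged exons where genes are compared. Psap, the precursor of the saposins that assist sphingolipid hydrolases, had the highest level per kb at 1223 CPM per kb (mean of the 8 groups; range of group means 818 to 1505). Cd68, a heavily glycosylated macrophage membrane protein, followed at 780 (536 to 972), Lamp1 at 480 (395 to 533), the asparaginyl endopeptidase gene Lgmn at 349 (261 to 432) and Hexa, the alpha subunit of beta-hexosaminidase, at 343 (187 to 479). The group means of neighbours in this order overlapped, except that every Cd68 group mean lay above every Lamp1 group mean. The other classes were led by Gusb (beta-glucuronidase) at 119 CPM per kb, Npc2 (a soluble cholesterol carrier) at 108, Gaa (acid alpha-glucosidase) at 56.5, Gnptab (the catalytic subunit of the phosphotransferase that makes the mannose 6-phosphate tag) at 55.2 and Man2b1 (acid alpha-mannosidase) at 43.4. The ratio of the highest to the lowest group mean was largest for Man2b1 at 4.52, followed by Gm2a at 3.77, Arsb at 3.74 and Ifi30 at 3.52. Psap alone held 13.5% to 28.3% of the summed member counts of a library.

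**Figure D1:**
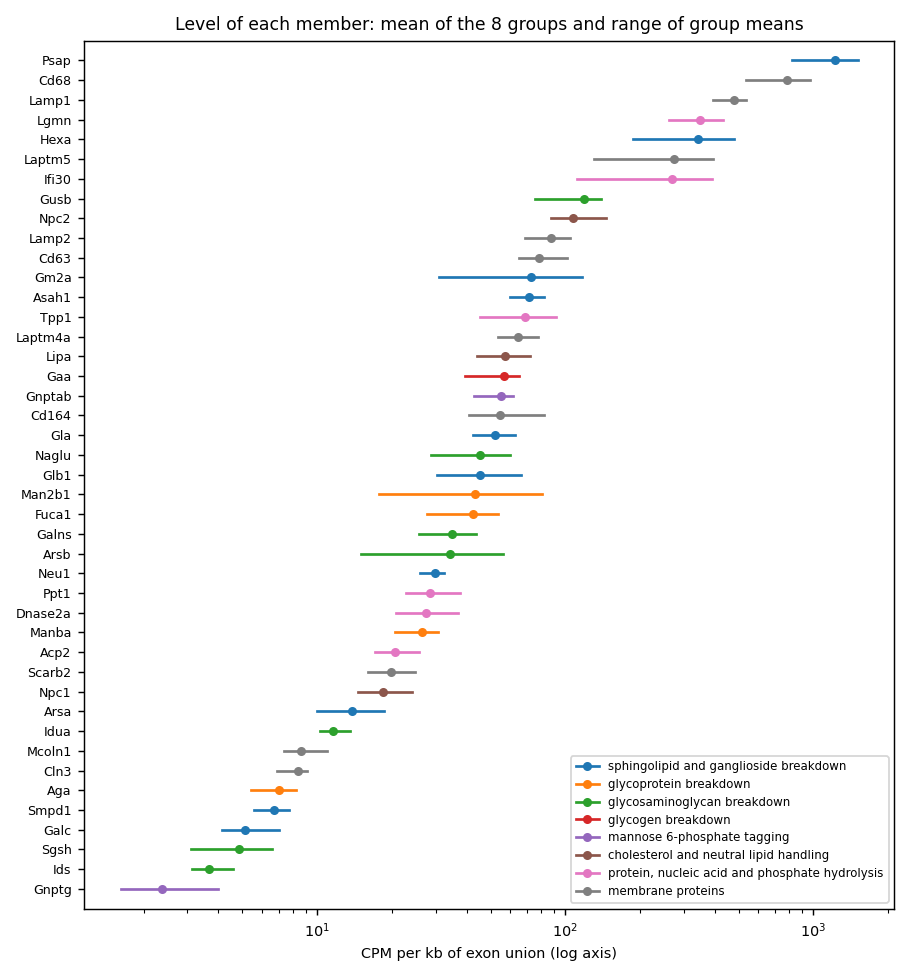
Level of the 43 members in CPM per kb of merged exons on a log axis. Points are means of the 8 groups, bars span the lowest to the highest group mean, and colours mark the functional class. Psap and Cd68 head the order with means of 1223 and 780 CPM per kb.

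Cd68 split by replicate number more than by group. With vehicle and scramble it stood at 746, 756, 1680 and 1703 CPM in replicates 1 to 4, and with LPS and scramble at 676, 817, 1202 and 1268 CPM. In all 8 groups its replicates 3 and 4 lay above its replicates 1 and 2. Each replicate number occurs once in every group, and the methods call the replicates independent experiments, which allows a paired layout. The labels do not state that equal numbers share an experiment. Tests without and with the number as a block are therefore given where the libraries of equal number deviated together. Counts named first in a comparison are from fits without the block.

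LPS in cells with the scramble mimic lowered 7 of the 43 members and raised 0. A member was called when limma-voom gave an adjusted p under 0.05 and a log2 fold change beyond 0.3 in either direction. In this comparison 8.2% of the 12128 genes tested were called lower and 9.25% higher, against 16.3% of the members called lower and 0 called higher. The median log2 fold change was -0.23 over the members and 0.01 over all genes, and 32 of 43 members had a negative value. The lowered members were genes of ganglioside breakdown (the activator gene Gm2a and the enzyme genes Glb1 and Hexa), Man2b1 of glycoprotein breakdown, Arsb of glycosaminoglycan breakdown, the nuclease gene Dnase2a and the membrane protein gene Laptm5. The members not called ranged from -0.59 to 0.45. As these are shares of all counts, fewer transcripts of a gene per cell and more RNA of other genes cannot be told apart, and neither can fewer cells of a type and less RNA per cell.

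Arsb encodes arylsulfatase B, which removes sulfate from dermatan and chondroitin sulfate (chr13:93771630-93943016, plus strand, GRCm38). It stood at 220, 345, 349 and 440 CPM with vehicle and at 103, 102, 110 and 139 CPM with LPS. The groups did not overlap, and the log2 fold change was -1.57 ± 0.21 (SE; limma-voom adjusted p = 0.000537). Man2b1, the mannose-trimming enzyme (chr8:85083270-85098282, plus strand), stood at 512, 602, 456 and 481 CPM with vehicle and at 229, 226, 216 and 212 CPM with LPS. Its LPS libraries lay close together and all below the vehicle libraries (log2 fold change -1.23 ± 0.14, limma-voom adjusted p = 0.000243).

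Laptm5, a membrane protein of immune cell lysosomes (chr4:130913125-130936141, plus strand), stood at 1146, 1173, 1799 and 1692 CPM with vehicle and at 651, 705, 796 and 705 CPM with LPS. The vehicle libraries were spread widely, with replicates 3 and 4 highest, but none reached the LPS range (-1.02 ± 0.18, limma-voom adjusted p = 0.00325). Dnase2a, the acid nuclease that degrades DNA of engulfed cells (chr8:84908560-84922915, plus strand), stood at 179, 227, 196 and 191 CPM with vehicle and at 123, 132, 117 and 105 CPM with LPS. Its groups did not overlap either (-0.76 ± 0.14, limma-voom adjusted p = 0.0041). It overlaps Mast1 on the opposite strand.

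Gm2a encodes the activator that presents GM2 ganglioside to beta-hexosaminidase, and Hexa encodes a subunit of that enzyme. Gm2a fell by 1.08 on the log2 scale (SE 0.22, limma-voom adjusted p = 0.00706) and Hexa fell by 0.68 (SE 0.17, adjusted p = 0.0204). Glb1, the beta-galactosidase that acts on GM1 ganglioside, fell by 0.68 (SE 0.13, adjusted p = 0.00537). Leaving out 1 library at a time kept 6 of the 7 calls in all 8 fits. Hexa was lost without replicate 3 or 4 of vehicle scramble and without replicate 1, 3 or 4 of LPS scramble (adjusted p up to 0.0735).

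Libraries of equal number deviated together in this comparison (lowest correlation 0.18), and with the number as a block 12 members were called, 11 lower and 1 higher, where 24.5% of all genes were called in either direction. The block added Naglu (-0.54), Cd63 (-0.58), Arsa (-0.48) and Ifi30 (-0.47) as lower and Ppt1 (0.45) as higher. Microglia markers also moved with LPS in these libraries, with 4 of 10 tested called lower and 1 higher. Trem2 fell by 1.37 and Tyrobp by 1.10 on the log2 scale, while Itgam rose by 0.54. The oligodendrocyte marker Mbp, at low counts, fell by 0.91. Their part in the member differences was not tested.

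**Figure D2:**
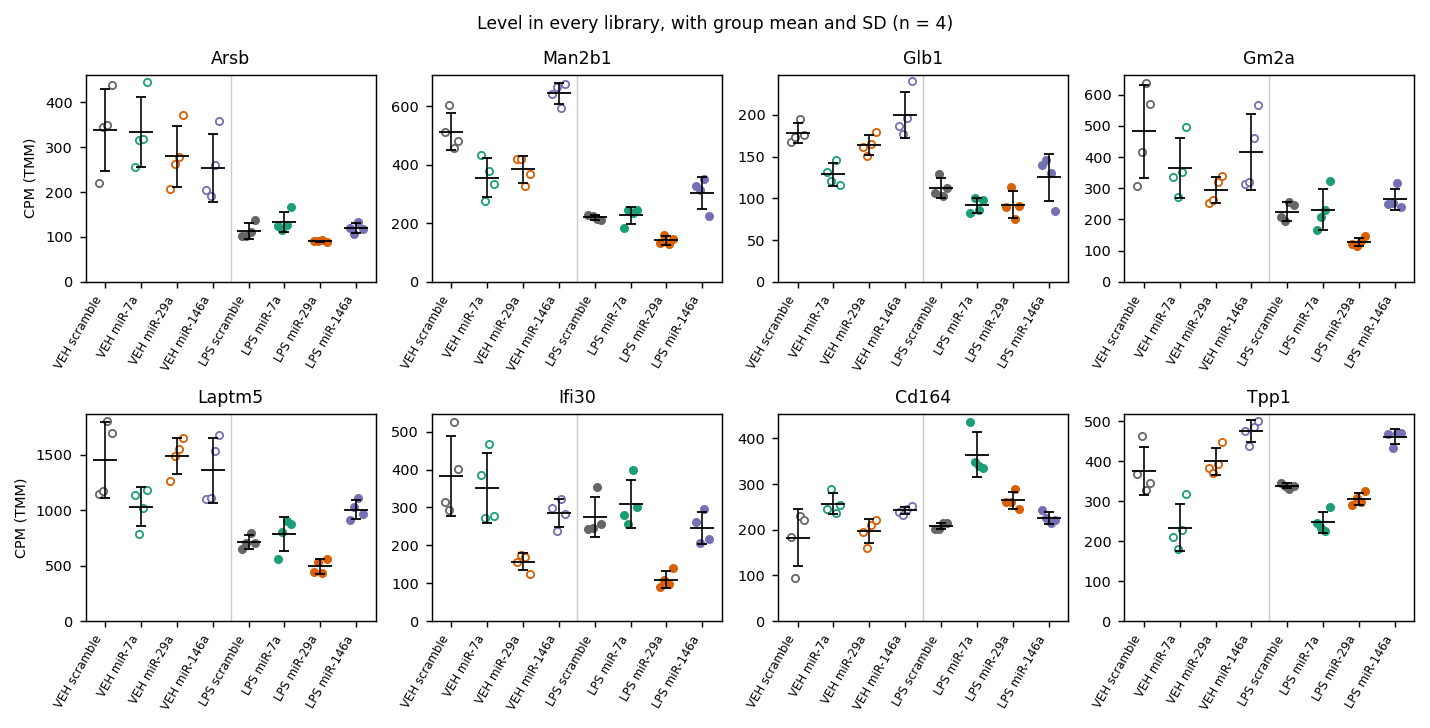
CPM of 8 members in each of the 32 libraries, by group. Open points are vehicle and filled points LPS libraries, and bars give the mean ± SD (n = 4). Arsb, Man2b1 and Glb1 sit lower in every LPS group than in the vehicle group of the same mimic, Ifi30 sits lowest with miR-29a, and Cd164 highest with LPS and miR-7a.

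The same LPS comparison within each mimic uses separate libraries. Libraries of equal replicate number deviated together between several of these groups, so the 4 comparisons are not independent repeats. Arsb, Man2b1 and Glb1 were called lower in all 4. Glb1 values in LPS libraries of scramble, miR-7a and miR-29a were restored at posteriors as low as 0.965 to 0.984. At a posterior of at least 0.99 Glb1 was therefore not tested in these comparisons. The log2 fold changes of Arsb were -1.57 in scramble, -1.30 in miR-7a, -1.62 in miR-29a and -1.08 in miR-146a cells. Man2b1 had -1.23, -0.68, -1.46 and -1.12, and Glb1 had -0.68, -0.54, -0.87 and -0.70, in the same order of mimics. The Glb1 call was lost in 7 of 8 leave-one-out fits with miR-7a (adjusted p up to 0.145; kept only without replicate 1 of LPS miR-7a) and in 6 of 8 with miR-146a (up to 0.113). The Man2b1 call with miR-7a was lost in 4 of 8, without replicate 1, 3 or 4 of vehicle miR-7a or replicate 3 of LPS miR-7a (up to 0.0936).

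Cells with miR-29a had the most members called under LPS, 18 lower and 5 higher of 43. Of all genes 13.3% were called lower and 12.9% higher in this comparison, against 41.9% and 11.6% of the members. The median was -0.37 over the members and -0.01 over all genes. The lowest values were those of Laptm5 (-1.62 ± 0.14, limma-voom adjusted p = 2.57e-05), Arsb (-1.62 ± 0.16, adjusted p = 5.35e-05), Man2b1 (-1.46 ± 0.13, adjusted p = 3.08e-05) and Gm2a (-1.22 ± 0.14, adjusted p = 0.000127). Laptm5 stood at 1266, 1489, 1554 and 1646 CPM with vehicle and miR-29a and at 445, 530, 433 and 563 CPM with LPS and miR-29a. Even the highest LPS library lay far below the lowest vehicle library.

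The other lowered members in cells with miR-29a covered each class except the mannose 6-phosphate tag. They were Sgsh (-1.14), Naglu (-0.79) and Gusb (-0.51) of glycosaminoglycan breakdown, Hexa (-1.01), Arsa (-0.91) and Glb1 (-0.87) of sphingolipid breakdown, and Fuca1 (-0.64) of glycoprotein breakdown. Gaa (-0.74), the cholesterol exporter gene Npc1 (-0.49), Dnase2a (-0.67), Ifi30 (-0.55), the peptidase gene Tpp1 (-0.41), the calcium channel gene Mcoln1 (-0.60) and Lamp1 (-0.46) were also lower. The raised members were Lipa, the acid lipase (0.54), Lamp2 (0.53), the palmitoyl-thioesterase gene Ppt1 (0.51), the alpha-galactosidase gene Gla (0.42) and the sialomucin gene Cd164 (0.40). LPS and vehicle libraries overlapped for Naglu, Lamp2, Gaa and Ifi30 among these. By edgeR Naglu (adjusted p = 0.0527), Cd164 (0.0535) and Lamp1 (0.0533) were not called. Of the raised members only Ppt1 held its call in all 8 leave-one-out fits, with Lipa and Gla in 4, Lamp2 in 3 and Cd164 in 1. Of the lowered members Naglu and Lamp1 held in 3, Gaa, Ifi30 and Tpp1 in 4, Mcoln1 and Npc1 in 6, and the others in all 8. Leaving out 1 library gave 13 to 24 calls, with 14 without replicate 1 and 15 without replicate 3 of LPS miR-29a, and 13 without replicate 3 of vehicle miR-29a. These counts are not set against the shares of all genes in the same fits, and no trait of the members is read from them. With the number as a block (lowest correlation 0.19) 26 members were called, where 36.9% of all genes were, and Cd68 (-0.52), Manba (-0.42) and Cln3 (-0.46) were added. Of 10 microglia markers tested here 5 were lower and 0 higher, and their part was not tested.

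In cells with miR-7a, LPS lowered 3 members and raised 2, where 3.75% and 2.45% of all genes were called lower and higher. The raised members were Ppt1 (0.72 ± 0.14, limma-voom adjusted p = 0.0118) and Npc2 (0.64 ± 0.14, adjusted p = 0.0214). Ppt1 stood at 78.3, 74.7, 82.9 and 102 CPM with vehicle and at 141, 136, 126 and 152 CPM with LPS, without overlap. It overlaps Cap1 on the opposite strand. Npc2 stood at 502, 479, 444 and 575 CPM with vehicle and at 674, 727, 829 and 937 CPM with LPS, also without overlap. The Npc2 call was lost by edgeR (adjusted p = 0.054), without replicate 2 or 3 of vehicle miR-7a and without replicate 3 or 4 of LPS miR-7a. The member count was 2 without replicate 3 of either group. It was 3 without replicate 1, 2 or 4 of vehicle miR-7a. No share of all genes is given for these fits, so the moves are not read as a trait of the members. Among the LPS and vehicle pairs of 1 mimic, depth and structural RNA share differed most by ratio here (2.97 ± 1.67 M and 36.6% ± 20.5 with vehicle, 9.90 ± 2.35 M and 3.35% ± 0.25 with LPS; SD, n = 4), and 2 of 10 microglia markers were lower and 1 higher. Their part in the differences was not tested.

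In cells with miR-146a, LPS lowered 3 of 42 members, again Arsb, Man2b1 and Glb1, where 1.58% of all genes were called lower. Man2b1 stood at 643, 666, 593 and 674 CPM with vehicle and at 328, 313, 349 and 224 CPM with LPS. The mean of these vehicle libraries was the highest Man2b1 mean of the 8 groups. Of 10 microglia markers 2 were lower here, and their part was not tested. Whether LPS differences differed between mimics and scramble is given by the interaction tests.

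**Figure D3:**
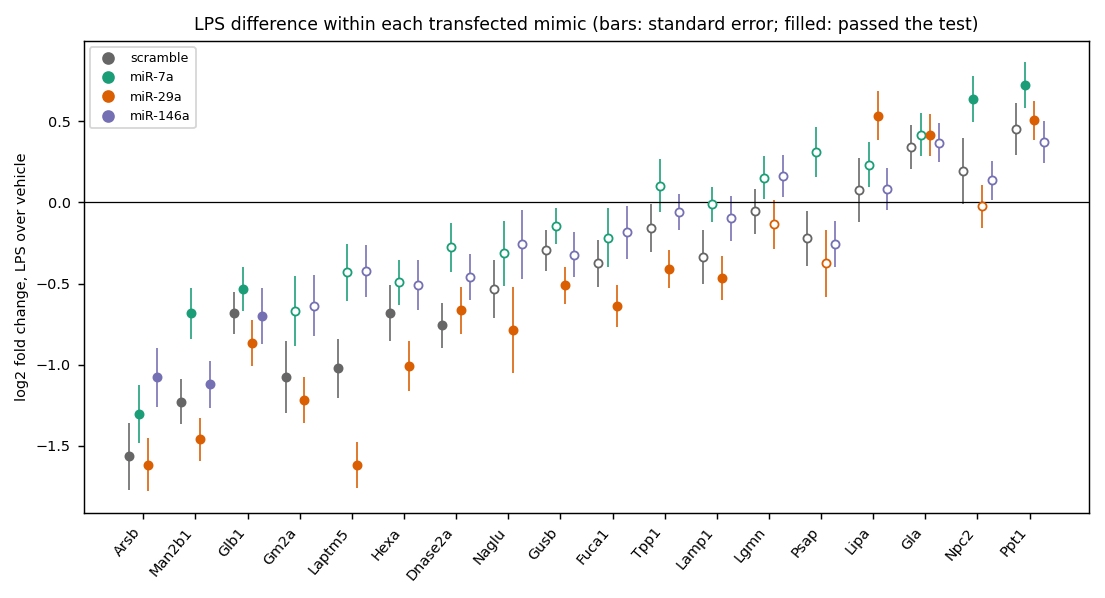
Log2 fold change of LPS over vehicle for 18 members in cells with each mimic, with standard errors (4 against 4 libraries each). Filled points passed the test. Arsb, Man2b1 and Glb1 are filled and negative for all 4 mimics, and Ppt1 is positive for all 4 but filled only for miR-7a and miR-29a.

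With LPS, miR-29a lowered 9 of 43 members relative to scramble and raised 0. In this comparison 2.53% of 13044 genes were called lower and 2.08% higher, against 20.9% of the members called lower and 0 called higher. The median was -0.23 over the members and 0.01 over all genes. The lowered members were Ifi30, Gm2a, Hexa, Man2b1, Gusb, Fuca1, Laptm5, Lgmn and Gnptab. They fall in 6 of the 8 classes, and of them only Hexa holds the miR-29a-3p match shown above (Ifi30 had no 3′ UTR to search). The members not called ranged from -0.56 to 0.34.

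Ifi30 encodes a thiol reductase that unfolds antigens in the lysosome (chr8:70762774-70766663, minus strand). It stood at 244, 246, 353 and 258 CPM with scramble and at 89.8, 109, 97.2 and 141 CPM with miR-29a. Replicate 3 of scramble was high, and replicate 4 of miR-29a was the highest of its group, yet the groups stayed apart. The log2 fold change was -1.34 ± 0.17 (limma-voom adjusted p = 0.00303) and kept its call in all 8 leave-one-out fits.

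Gm2a (chr11:55098115-55113029, plus strand) stood at 207, 194, 256 and 245 CPM with scramble and at 123, 114, 130 and 145.99 CPM with miR-29a. Each miR-29a library lay below each scramble library (-0.81 ± 0.13, limma-voom adjusted p = 0.0103). Gusb, which removes glucuronic acid from glycosaminoglycans (chr5:129989011-130003049, minus strand), stood at 512, 523, 525 and 530 CPM with scramble and at 346, 350, 317 and 358 CPM with miR-29a. It varied little within either group (-0.60 ± 0.10, limma-voom adjusted p = 0.0112). Man2b1 stood at 229, 226, 216 and 212 CPM with scramble and at 132, 162, 128 and 148 CPM with miR-29a, again without overlap (-0.64 ± 0.11, limma-voom adjusted p = 0.012).

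These 4 calls held in all 8 leave-one-out fits, and the other 5 were less stable. Fuca1 (-0.57, alpha-fucosidase) held in 5 of 8, Hexa (-0.70) and Laptm5 (-0.53) in 2 of 8, and Lgmn (-0.52) and Gnptab (-0.49) in 1 of 8. By edgeR Laptm5 (adjusted p = 0.0521) and Lgmn (0.0688) were not called. The number of members called fell to 4 without replicate 3 of LPS miR-29a or without replicate 3 or 4 of LPS scramble. It was 5 without replicate 1 of LPS miR-29a or replicate 2 of LPS scramble, and 6 without replicate 1 of LPS scramble. The shares of all genes called in these fits are not given here, so the drop is not read as particular to the members. Lgmn stood at 856, 817, 876 and 940 CPM with scramble and at 608, 526, 555 and 740 CPM with miR-29a. Gnptab stood at 345, 425, 308 and 355 CPM with scramble and at 245, 262, 246 and 255 CPM with miR-29a. In both genes 1 library lies near the edge of the other group, replicate 4 of miR-29a for Lgmn and replicate 3 of scramble for Gnptab.

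With the replicate number as a block (lowest correlation 0.28 in this comparison) 13 members were called, where 9.87% of all genes were. The block added Cd68 (-0.59) and Npc2 (-0.36) as lower and Cd164 (0.34) and the acid ceramidase gene Asah1 (0.31) as higher. Cd68 stood at 676, 817, 1202 and 1268 CPM with scramble and at 462, 537, 581 and 1118 CPM with miR-29a. It was lower with miR-29a within each replicate number, although the groups overlapped (adjusted p = 0.289 without the block, 0.0066 with it, limma-voom). Microglia markers moved here too, with 2 of 10 tested called lower, Csf1r (-0.70) and Tyrobp (-0.57), and their part was not tested.

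With LPS, miR-7a raised 2 of 43 members (4.65%) relative to scramble and lowered 0. Of 12878 genes tested 1.52% were called higher and 1% lower. Cd164, an endolysosomal sialomucin (chr10:41519414-41531048, plus strand), stood at 201, 203, 215 and 215 CPM with scramble and at 437, 349, 339 and 334 CPM with miR-7a. The scramble libraries were tightly grouped and all miR-7a libraries lay above them (0.80 ± 0.12, limma-voom adjusted p = 0.00901). This call held in all 8 leave-one-out fits. Gnptg, the gamma subunit of the phosphotransferase that tags hydrolases (chr17:25233331-25240124, minus strand), stood at 7.17, 5.16, 4.62 and 3.87 CPM with scramble and at 8.65, 7.5, 10.8 and 8.93 CPM with miR-7a. It had the lowest counts of the named members, overlaps Unkl on the opposite strand, and its call (0.93 ± 0.20, limma-voom adjusted p = 0.0393) was lost on leaving out any 1 of the 8 libraries (adjusted p 0.052 to 0.155).

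With the number as a block (lowest correlation 0.28) 7 members were called for miR-7a under LPS, 4 higher and 3 lower, where 8.69% of all genes were called. The added ones were Npc2 (0.37) and the sulfamidase gene Sgsh (0.62) as higher, and Psap (-0.35), the sulfatase gene Galns (-0.50) and Tpp1 (-0.46) as lower. Tpp1 encodes tripeptidyl peptidase 1 (chr7:105744811-105752235, minus strand). It stood at 346, 339, 332 and 338 CPM with scramble and at 244, 232, 226 and 286 CPM with miR-7a. The groups did not overlap (-0.46, adjusted p = 0.054 without the block and 0.0066 with it, limma-voom). The 7 members with a miR-7a-5p match had log2 fold changes of -0.46 (Tpp1), -0.35 (Psap), -0.14 (Lipa), 0.00 (Gnptab), 0.07 (Ids), 0.13 (Gusb) and 0.14 (Lamp2) under LPS, and none was called without the block at the settings used for the other pairwise fits. Tpp1, close to the threshold there, passed without a block by DESeq2 (adjusted p = 0.00461) and in 1 limma-voom fit over all groups (0.0205). In pairwise limma-voom fits it passed without a filter on low counts (adjusted p = 0.0385), at a posterior of at least 0.99 (0.0407), with structural RNA genes left out (0.049) and without replicate 4 of LPS miR-7a (0.0365).

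With LPS, miR-146a raised 2 of 43 members (4.65%) relative to scramble and lowered 0. Of 12445 genes tested 0.763% were called higher and 2.27% in either direction. Of the 43 members 38 had a positive value, and the median was 0.16 over the members and -0.01 over all genes. Laptm5 stood at 651, 705, 796 and 705 CPM with scramble and at 913, 1028, 1108 and 965 CPM with miR-146a. Tpp1 stood at 346, 339, 332 and 338 CPM with scramble and at 468, 432, 470 and 472 CPM with miR-146a. Neither gene showed overlap, and the log2 fold changes were 0.49 ± 0.11 for Laptm5 (limma-voom adjusted p = 0.0499) and 0.44 ± 0.09 for Tpp1 (adjusted p = 0.0387).

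Both miR-146a calls lay near the threshold. Laptm5 was lost on leaving out any 1 of the 8 libraries, and Tpp1 was kept only without replicate 2 of LPS miR-146a (adjusted p up to 0.146). By edgeR 0 members were called, where 1.21% of all genes were. With the number as a block (lowest correlation 0.15) 4 members were called, all higher, where 10.2% of all genes were, with Naglu (0.52) and Man2b1 (0.44) added. The 5 members with a miR-146a-5p match had values of 0.03 to 0.26 under LPS and none was called.

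**Figure D4:**
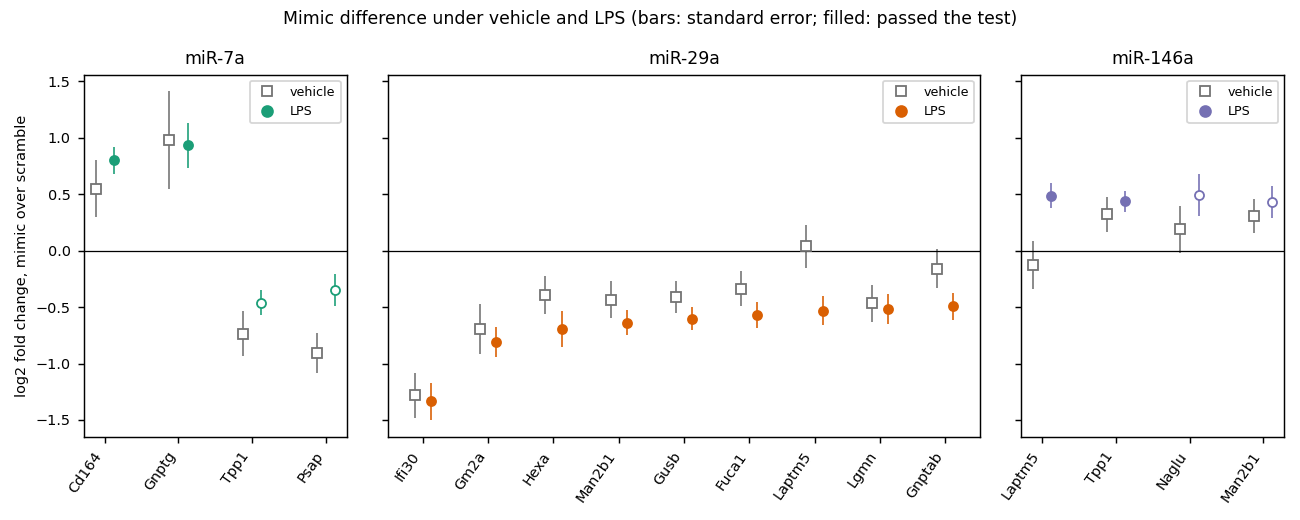
Log2 fold change of each mimic over scramble under vehicle (squares) and LPS (circles) for selected members, with standard errors (4 against 4 libraries each). Filled symbols passed the test, and all filled ones are LPS values. For Ifi30 with miR-29a and Gnptg with miR-7a the vehicle and LPS values lie close together.

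Under vehicle no mimic gave a called member in the pairwise limma-voom fits with all libraries, the filter on low counts, a posterior of at least 0.9 and no block. With miR-7a 0 of 43 members were called, where 0.0459% of 10893 genes were, and 10 members had an unadjusted p under 0.05, where 12.2% of all genes had. By edgeR 0 members were called (0.147% of genes) and by DESeq2 1 was (2.09% of genes), Psap. Psap (chr10:60277627-60302597, plus strand) stood at 4330, 4800, 3870 and 3521 CPM with scramble and at 2924, 1959, 2073 and 2022 CPM with miR-7a. The groups did not overlap, and replicate 1 of miR-7a, the library with little structural RNA, was the highest of its group. The log2 fold change was -0.91 ± 0.18 (limma-voom adjusted p = 0.0888). It was -1.04 without replicate 1 of vehicle miR-7a (adjusted p = 0.0108) and stayed at -0.91 with structural RNA genes left out (adjusted p = 0.0561). Psap was also called by limma-voom without a filter on low counts (adjusted p = 0.0396) and at a posterior of at least 0.99 (0.0497). Tpp1 stood at 368, 462, 327 and 345 CPM with scramble and at 210, 180, 227 and 317 CPM with miR-7a, without overlap (-0.73 ± 0.20, limma-voom adjusted p = 0.201). In 1 limma-voom fit over all 8 groups, Tpp1 (adjusted p = 0.0012), Psap (0.00597) and Man2b1 (0.0489) were called lower with miR-7a, where 1.07% of all genes were called. The part of the structural RNA share and of the low depth in these values was not tested further.

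With miR-29a under vehicle 0 of 43 members were called by limma-voom, where 0.0087% of 11497 genes were, and 6 members had an unadjusted p under 0.05, where 10.2% of all genes had. By edgeR 0 were called (0% of genes) and by DESeq2 1 was (0.696% of genes), Ifi30. Ifi30 stood at 316, 292, 525 and 401 CPM with scramble and at 156, 175, 170 and 125 CPM with miR-29a. The groups were far apart relative to the spread within miR-29a (-1.28 ± 0.20, limma-voom adjusted p = 0.112), and without a filter on low counts Ifi30 was called (adjusted p = 0.0358). With the number as a block (lowest correlation 0.12) Ifi30 was the only member called (-1.26 ± 0.16, limma-voom adjusted p = 0.0225), where 0.365% of all genes were. The other 5 with an unadjusted p under 0.05 were Gm2a (-0.69), Lgmn (-0.47), Man2b1 (-0.43), Gusb (-0.41) and Hexa (-0.40). In 1 limma-voom fit over all 8 groups Ifi30 (adjusted p = 0.000848) and Gusb (0.0453) were called lower, where 0.564% of all genes were called.

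With miR-146a under vehicle 0 of 42 members were called by limma-voom, where 1.59% of 11624 genes were, and 3 members had an unadjusted p under 0.05, where 24.9% of all genes had. By edgeR and DESeq2 0 were called, where 2.11% and 9.93% of genes were. The 3 were Lamp2 (0.56), Acp2 (0.37) and Sgsh (-0.47). In 1 limma-voom fit over all 8 groups Lamp2 was called higher (adjusted p = 0.0283), where 11.6% of all genes were called.

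A call under LPS and none under vehicle does not show a difference between them, so the difference of the differences was tested over 16 libraries for each mimic. By limma-voom 0 members were called for miR-7a (0.0084% of genes called), 0 for miR-29a (0.0166%) and 0 for miR-146a (0%). The difference was positive in 41 of 43 members for miR-7a (median 0.26, against 0.04 over all genes), in 12 of 43 for miR-29a (-0.13, against -0.01) and in 24 of 42 for miR-146a (0.06, against -0.02). The share of all genes with a positive difference is not given here. The miR-7a test uses the vehicle miR-7a group, whose replicates 2 to 4 held 46.4% to 47.1% structural RNA counts at low depth. Their part in the 41 positive values was not tested. At an unadjusted p under 0.05 there were 6, 2 and 2 members, where 5.41%, 6.35% and 11% of genes passed. By edgeR 0 members were called for each mimic, where 0.0084%, 0.0166% and 0% of genes were, and by DESeq2 0, where 0.529%, 0.124% and 0.107% were. Laptm5 had the unadjusted p values 0.0206, 0.02 and 0.0243 in the 3 tests, with differences of 0.63 for miR-7a, -0.58 for miR-29a and 0.59 for miR-146a (limma-voom adjusted p 0.82, 0.693 and 0.41). These 3 tests share the scramble libraries. For Ifi30 with miR-29a the difference between LPS and vehicle was -0.05 ± 0.27, and for Man2b1 with miR-7a it was 0.60 ± 0.20 (adjusted p = 0.724). On simulated counts the interaction test for miR-29a recovered 26.9% of genes with a log2 change of 1. Those for the other 2 mimics were not simulated.

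Under LPS, miR-7a and miR-29a were also compared with each other. Of 12713 genes tested 2.41% were called higher with miR-7a and 3.73% in either direction. Of 43 members, 6 were higher with miR-7a and 0 lower. They were Ifi30 (1.5), Gm2a (0.82), Gusb (0.74), Npc2 (0.72), Man2b1 (0.67) and the acid phosphatase gene Acp2 (0.56). Gusb stood at 563, 546, 599 and 579 CPM with miR-7a and at 346, 350, 317 and 358 CPM with miR-29a. Ifi30 stood at 280, 257, 399 and 300 CPM with miR-7a and at 89.8, 109, 97.2 and 141 CPM with miR-29a. Both kept their calls in all 8 leave-one-out fits. Npc2 stood at 674, 727, 829 and 937 CPM with miR-7a and at 485, 464, 405 and 554 CPM with miR-29a, and its call held in 2 of 8. The count was 2 to 4 without any 1 of 7 libraries and 11 without replicate 1 of LPS miR-7a. Shares of all genes in these fits are not given here, so the moves are not read as particular to the members.

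**Figure D5:**
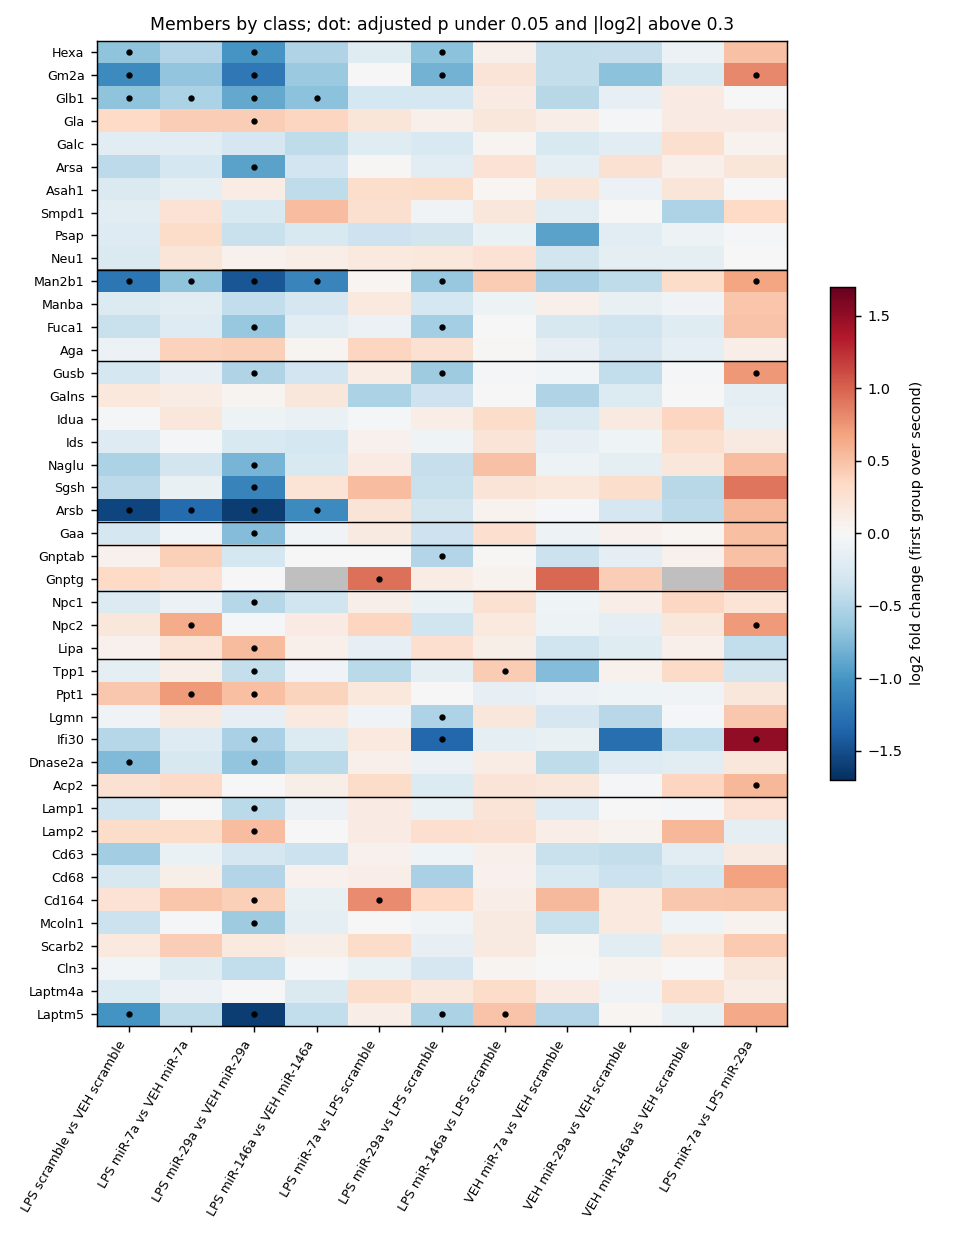
Log2 fold change of the 43 members (rows, divided by class in the order sphingolipid, glycoprotein, glycosaminoglycan, glycogen, mannose 6-phosphate tag, cholesterol and lipid, protein and nucleic acid, membrane) in 11 comparisons (columns). Red is higher in the group named first, blue lower, dots mark called members and grey marks Gnptg where it was not tested. The column of LPS over vehicle with miR-29a holds 23 dots and the 3 vehicle mimic columns hold 0.

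Other lysosomal genes were counted from 4 further lists. With LPS and scramble, 5 of 20 tested further hydrolases and cofactors were lower and 1 higher, where 8.2% of all genes were lower and 9.25% higher. The higher one was Acp5, the tartrate-resistant acid phosphatase, which rose by 2.44 on the log2 scale (limma-voom adjusted p = 4.58e-05), while Prcp fell by 0.61. Of 18 further membrane proteins, Slc17a5, the sialic acid exporter, fell by 1.32 and Sidt2 by 0.71. Of 9 sorting receptors and adaptors 2 were lower (Gga2 at -0.77 and Nagpa at -0.89) and 1 higher (Ap3b1 at 0.67). Of the 4 transcription factors Tfeb was lower (-0.88).

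In cells with miR-29a, LPS lowered 7 of 20 further hydrolases and cofactors and raised 2, lowered 8 of 19 further membrane proteins and raised 2, and lowered 4 of 9 sorting genes. Of all genes 13.3% were lower and 12.9% higher in this comparison. Slc17a5 fell by 2.17 and Hyal1, a hyaluronidase, by 1.66. Tfeb (-1.07) and Tfe3 (-0.56) were both lower. Slc17a5 was called lower under LPS with all 4 mimics, at -1.33 with miR-7a and -1.10 with miR-146a, and Acp5 was called higher with all 4, at 1.56 in miR-7a, 1.45 in miR-29a and 2.20 in miR-146a cells.

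Relative to scramble under LPS, miR-29a lowered 3 of these 20 hydrolases and cofactors (Hyal1 at -1.74, Acp5 at -1.36 and Hgsnat at -0.66) and raised Pla2g4a (0.51), where 2.53% of all genes were lower and 2.08% higher. It also lowered Igf2r (-0.52), the receptor that carries mannose 6-phosphate tagged hydrolases, and raised the membrane protein gene Ostm1 (0.59). With miR-7a under LPS Acp5 (1.13) and Sumf1 (0.68) were higher and Hgsnat (-1.50) lower, and the membrane genes Clcn7 (0.82) and Ostm1 (0.62) were higher, where 1.52% of all genes were higher and 1% lower. With miR-146a under LPS Slc17a5 (0.68) was the only gene of these lists that was called, where 0.763% of all genes were higher. Under vehicle Acp5 with miR-7a (1.99, limma-voom adjusted p = 0.00749) was the only one, where 0.0459% of all genes were called.

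The summed member counts took 1.20% to 1.96% of a library, except in replicates 2 to 4 of vehicle miR-7a, where they took 0.73% to 0.839%. With structural RNA genes left out of the total, the vehicle miR-7a libraries lay at 1.38% to 1.72%. On that scale the share was 1.91% ± 0.07 with vehicle and scramble and 1.68% ± 0.12 with LPS and scramble. It was lowest with LPS and miR-29a at 1.45% ± 0.19 and highest with vehicle and miR-146a at 1.95% ± 0.09 (SD, n = 4 each). Within LPS miR-29a the 4 libraries spread from 1.23% to 1.62%, so the range overlaps that of LPS scramble (1.57% to 1.86%). These shares are a description and were not tested.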

How the data were processed

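Total RNA libraries of 32 BV-2 samples were made after ribosomal RNA depletion. The authors quantified reads per gene on GRCm38 with the nf-core rnaseq workflow (version 3.0), and the submitters' processing notes name limma and edgeR. The deposited values are estimated counts per gene, neither normalised nor pooled, printed without their decimal marks. Of 109458 values of 20000 or more, 0.0155% end in 0. The strand setting of the counting is not given in the sources used here.

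For each value above 0, the number of lost decimals (0 to 3) was estimated from its size, last digits and the level of the gene in its group, condition and table. The prior shares of 1, 2 and 3 decimals were 0.01, 0.09 and 0.9, and the level density was a t with 7 degrees of freedom. Decimals were put back in 28.4% of the 590874 values above 0. Genes with a posterior under 0.9 in a library compared (1.29% of values) were left out there. Among restored fractional values, other than those ending in 001 or 999, 6.14% to 8.96% per library had fewer than 3 decimals, where 10% would be even digits, so a shortfall remains. On simulated data 99.9% of certain values were restored correctly. These data took each gene's share of fractional values from the restoration itself and held no general LPS difference. They therefore do not test departures such as this shortfall. Restored counts were rounded to whole numbers.

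Filtering by filterByExpr, TMM scaling and limma-voom (limma 3.58.1, edgeR 4.0.16, R 4.3.3) were used, with 1 fit per pair of groups and Benjamini-Hochberg adjustment over all genes tested. The study's methods name filterByExpr, TMM and a limma/edgeR model per pair of conditions, but not voom, and their extra log transformation and outlier clustering were not applied here. A call required an adjusted p below 0.05 together with a log2 fold change beyond 0.3 in size. Tests were two-sided, and SE is the standard error of the moderated fit. With 200 genes changed in simulated counts, the pairwise test of LPS miR-29a against LPS scramble recovered 11.1%, 52.2% and 87.7% of genes at log2 changes of 0.6, 1 and 2, and the miR-29a interaction test 1.69%, 26.9% and 75%. Alternatives were edgeR's quasi-likelihood test, DESeq2 1.42.0, RLE size factors, no filter, no minimum fold, 1 fit over all groups, a replicate block, a posterior of 0.99, restoration from the level over all libraries, values as deposited, structural RNA genes left out, and each library left out.

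Libraries of equal number were taken as paired where every correlation of their deviations from the group means was above 0.1, which held for 6 of 11 comparisons of groups. No 2 libraries of a group agreed within sampling noise (chi-square over degrees of freedom 6.04 to 88.1 over 11030 genes in 48 pairs). Variation between libraries thus exceeded counting error. The counting resolution, as 3 counts, was 0.144 to 2.09 CPM. Exon lengths are from GENCODE M21, in which 563 gene IDs were not matched. Members with values in every library are the up to 4 called members of smallest adjusted p in each comparison and the member of highest level per kb in each class. Cd68, Psap and Tpp1 in further comparisons were added after their values were seen. The members and lists were chosen with earlier results of these data known. Some genes of the further lists are not reported here.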

Additional observations from a re-analysis of the deposited data

Results flagged for a closer look

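Single libraries that stood apart from the other 3 of their group were looked for in 168 sets of 4 values, and 12 (7.14%) were found by Dixon's test at the 95% level, by which chance marks about 5% of sets. In vehicle miR-7a, replicate 1 held 5.93% structural RNA counts against 46.4% to 47.1% in the others, 1.62% member counts against 0.73% to 0.839%, and 2920 CPM of Psap against 1960 to 2070. In LPS miR-7a, replicate 1 held 1.49% member counts against 1.73% to 1.78%, 437 CPM of Cd164 against 334 to 349, and 160 CPM of Gaa against 300 to 323. In LPS miR-146a, replicate 2 was low for Tpp1 (432 CPM against 468 to 472), replicate 3 high for Gm2a (316 against 240 to 252) and replicate 4 high for Npc2 (744 against 653 to 660). The remaining ones were Gaa in replicate 1 of vehicle scramble (209 CPM against 305 to 324), Ifi30 in replicate 3 of LPS scramble (353 against 244 to 258) and Gusb in replicate 4 of vehicle miR-146a (738 against 599 to 603). The causes were not tested.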

How the results depend on the processing

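Of the 57 called member differences, all kept their direction, where they could be fitted, under each alternative except the values as deposited. At a posterior of 0.99, 54 were fitted, as Glb1 was left out of LPS against vehicle with scramble, miR-7a and miR-29a. Of the 57 calls 9 were lost by edgeR, 3 in 1 fit over all groups and 1 without a filter on low counts. The counts of called members moved by over 1.5 times as follows, with the share of all genes called in brackets, and the cause was not tested except for the values as deposited, which keep the lost decimal marks. For LPS against vehicle with scramble the count was 7 (17.4%), and 13 by DESeq2 (21.6%) and 12 with the replicate block (24.5%). With miR-7a it was 5 (6.19%), and 11 without a filter (30.7%, more than the members' share), 8 by DESeq2 (10.6%), 8 in 1 fit over all groups (7.91%) and 10 with the block (14.4%). With miR-146a it was 3 (4.4%), and 6 without a filter (1.99%), 5 by DESeq2 (6.81%), 6 in 1 fit (6.74%) and 6 with the block (6.78%). For miR-7a under LPS it was 2 (2.52%), and 1 by edgeR (2.46%) and 7 with the block (8.69%), and for miR-146a under LPS 2 (2.27%), and 0 by edgeR (1.21%), 1 in 1 fit (2.87%) and 4 with the block (10.2%). For miR-7a against miR-29a under LPS it was 6 (3.73%), and 14 by DESeq2 (6.76%), 14 in 1 fit (6.75%) and 19 with the block (8.87%). Under vehicle the counts of 0 became 1 for miR-7a without a filter (0.0514%), by DESeq2 (2.09%), with the block (2.72%) and at a posterior of 0.99 (0.2%), and 3 in 1 fit (1.07%). They became 1 for miR-29a without a filter (0.00826%), by DESeq2 (0.696%) and with the block (0.365%), and 2 in 1 fit (0.564%), and 1 for miR-146a in 1 fit (11.6%).

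In 5 comparisons not every correlation was above 0.1, so libraries of equal number were not taken as paired there (lowest correlation -0.06 to 0.08). These were miR-7a and miR-146a under vehicle, LPS with each of these mimics, and miR-7a against miR-29a under LPS. Their mean correlations were all positive, at 0.10 to 0.30, so the rule does not show that these libraries were unpaired. The highest mean, 0.30, was that of miR-7a against miR-29a under LPS. Both of its groups met the rule against LPS scramble (mean correlation 0.34 for miR-7a and 0.35 for miR-29a). No call was lost under the block.

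Leaving out 1 library gave 6 to 11 calls for LPS with scramble (11 without replicate 1 of vehicle scramble), 2 to 5 with miR-7a, 13 to 24 with miR-29a and 2 to 3 with miR-146a. It gave 1 to 2 for miR-7a, 4 to 8 for miR-29a and 0 to 1 for miR-146a under LPS, 2 to 11 for miR-7a against miR-29a, 0 to 1 for miR-7a under vehicle (1 without its replicate 1), and 0 to 0 for the other vehicle comparisons and the interactions. Over these fits 307 member results kept their call and 149 lost it. Without replicate 1 of vehicle scramble 22.3% of all genes were called for LPS with scramble, against 17.4% with all libraries. The other counts are not set against such shares, so their moves are not read as particular to the members.

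With the values as deposited, 0 members were called in each LPS comparison except miR-29a against scramble (1). Few genes were called at all for LPS with scramble at this setting (0.753%), so the loss of calls there is not particular to the members. With the values as deposited 15 differences turned sign. LPS with scramble gave Laptm5 4.33. Under LPS miR-29a gave Lgmn 0.59, Gusb 1.81 and Fuca1 2.28. LPS with miR-29a gave Dnase2a 1.44, Sgsh 1.66, Arsa 1.65, Npc1 1.82, Gusb 2.17, Gaa 1.53, Laptm5 0.070, Lamp2 -0.57, Ppt1 -2.11 and Gla -1.94. For miR-7a against miR-29a Acp2 was -2.03. Detection in the pairwise vehicle comparisons was not simulated.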
